A study of Drosophila melanogaster with 3 samples.

Results

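The 32 genes described here regulate the neuroectoderm, the neuroblasts, the neurons and the glia of the fly nervous system. They are a list of names, chosen with earlier results of these data known. All 32 matched a protein-coding gene of the Ensembl models for the dm6 genome build, out of 13945 on the main chromosome arms. The binding data are chromatin immunoprecipitation followed by sequencing (ChIP-seq) from whole Drosophila melanogaster embryos of both sexes, aged 0 to 16 h, of a line that stably carries HLHm7 with GFP fused at the C-terminus. Precipitation used an antibody against GFP, and the 3 libraries are biological replicates of 1 group, so that no condition is compared with another and no test between groups exists. The promoter that drives the tagged protein is not stated in the labels, and all libraries carry the transgene. Whole embryos mix all tissues, so that strong binding in few cells and weak binding in many cannot be told apart.

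HLHm7 is a basic helix-loop-helix repressor of the Enhancer of split complex, whose genes are switched on by Notch signalling. In the embryonic neuroectoderm Notch signalling and the Enhancer of split proteins keep most cells of a proneural cluster from becoming neuroblasts, the stem cells that divide asymmetrically into neurons and glia. The 32 genes act at successive steps of this programme: patterning of the neuroectoderm, neuroblast identity and renewal, the temporal series, the fate of daughter cells, and the differentiation of neurons and glia.

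The authors kept 2397 peaks on dm6 as their optimal set, after a reproducibility step named irreproducible discovery rate (IDR). It was derived from ranked lists of 30000 regions each, made from every replicate and from the pooled replicates, and these lists include background regions. The signal of a region is the value its caller gave, on a scale that is not stated. It was turned into a rank inside each list, where rank 1 is the highest signal. A replicate's top list is its 2397 highest-signal regions. No read numbers are given, and depth is unknown. The tagged gene itself, E(spl)m7-HLH, had a peak at rank 860.

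Of the 32 genes, 9 had an optimal peak with its summit in the gene span or up to 2 kb upstream: sim, brat, moody, elav, lola, grh, loco, insc and pros. This is 28.1% of the list, beside 17.1% of all protein-coding genes. Gene length moved with this count. Of the 14 listed genes of 10 kb or more, 8 had a peak (57.1%), beside 37.9% of all genes of that length. Of the 18 listed genes under 10 kb, only moody had a peak (5.56%), beside 13.7% of all such genes. The part of gene length in the overall share was not tested. By role, 3 of 4 genes of asymmetric division had a peak, as did 2 of 3 neuronal genes, 2 of 7 glial genes, 1 of 6 neuroectoderm and midline genes and 1 of 4 temporal genes. None of the 4 Snail family genes and none of the 4 other progenitor and precursor genes had one. Differences between groups of this size were not tested. The list and these groups were chosen with earlier results of these data known, so their counts and shares give no independent support. The groups also differ in gene length. The genes of asymmetric division with a peak span 79.1, 45.9 and 14.8 kb, and mira, without one, 3.32 kb. sna, wor and esg span 1.67, 2.28 and 2.27 kb. In the Snail family scrt spans 10.1 kb, and among the other progenitor and precursor genes klu spans 28 kb, both without a peak. In total 6 of the 14 genes of 10 kb or more had no peak and 8 had one, beside the 37.9% above.

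**Figure D1:**
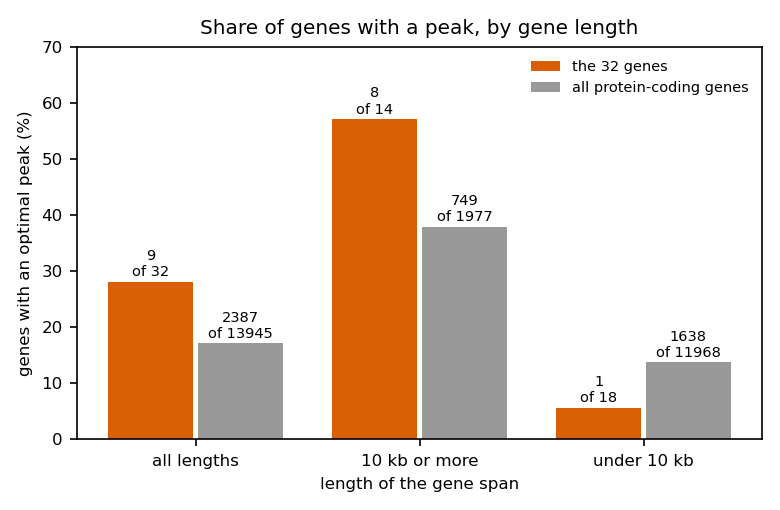
Bars give the percentage of genes with an optimal peak for the 32 genes (orange) and for all protein-coding genes (grey), over all gene lengths and for spans of 10 kb or more and under 10 kb, with counts above the bars. The listed genes stand at 57.1% against 37.9% among long genes and at 5.56% against 13.7% among short ones.

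The 9 genes carried 14 peaks, because brat had 4 and elav and lola had 2 each. The 7 sequences below are a selection, namely the 4 strongest peaks of the list and 3 weaker ones whose sequence matches are described next. Each runs on the plus strand of dm6 from 100 bases before to 100 bases after the summit, from the RefSeq genome of the same build. The sim window is chr3R:13068122-13068322, the brat windows are chr2L:19165043-19165243 and chr2L:19155059-19155259, and the moody window is chrX:2050176-2050376. The elav windows are chrX:523380-523580 and chrX:522537-522737, and the loco window is chr3R:22624780-22624980. Capitals mark any match, on either strand, to the 10 motifs searched.
sim, intron: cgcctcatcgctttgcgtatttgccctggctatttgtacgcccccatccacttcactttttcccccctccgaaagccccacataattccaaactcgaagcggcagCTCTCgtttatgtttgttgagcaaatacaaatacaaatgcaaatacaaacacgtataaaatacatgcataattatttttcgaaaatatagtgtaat
brat, intron, strongest peak: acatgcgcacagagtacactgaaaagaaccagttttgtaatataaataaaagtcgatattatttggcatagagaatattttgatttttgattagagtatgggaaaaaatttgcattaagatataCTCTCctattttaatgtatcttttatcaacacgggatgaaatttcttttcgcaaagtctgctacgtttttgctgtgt
brat, intron, weaker peak: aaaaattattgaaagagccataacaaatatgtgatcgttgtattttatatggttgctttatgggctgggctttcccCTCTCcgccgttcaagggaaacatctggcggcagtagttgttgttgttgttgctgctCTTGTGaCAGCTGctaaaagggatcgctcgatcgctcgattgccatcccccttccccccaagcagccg
moody, promoter: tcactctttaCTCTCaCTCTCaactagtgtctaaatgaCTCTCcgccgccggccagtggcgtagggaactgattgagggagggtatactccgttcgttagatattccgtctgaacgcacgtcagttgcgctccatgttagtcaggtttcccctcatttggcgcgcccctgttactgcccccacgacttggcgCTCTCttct
elav, promoter: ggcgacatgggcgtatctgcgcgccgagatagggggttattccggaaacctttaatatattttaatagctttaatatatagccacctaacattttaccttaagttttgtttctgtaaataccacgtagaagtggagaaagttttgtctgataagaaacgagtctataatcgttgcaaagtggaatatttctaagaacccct
elav, intron: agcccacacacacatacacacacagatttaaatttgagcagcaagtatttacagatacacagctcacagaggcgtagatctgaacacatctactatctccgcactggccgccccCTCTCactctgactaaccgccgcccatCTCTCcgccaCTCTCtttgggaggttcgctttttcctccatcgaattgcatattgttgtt
loco, intron: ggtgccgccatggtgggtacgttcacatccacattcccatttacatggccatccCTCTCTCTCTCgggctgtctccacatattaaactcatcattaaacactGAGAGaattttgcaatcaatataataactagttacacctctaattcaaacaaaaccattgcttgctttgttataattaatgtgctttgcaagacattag

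GAGAG, the core of the element bound by the GAGA factor, was the motif that most of these peaks held. It is also the shortest of the 10 motifs searched, so its count does not compare directly with theirs. It lay within 100 bp of the summit in 9 of the 14 peaks (64.3%), beside 24.2% of all 2397 optimal peaks. Matches on the minus strand read CTCTC above. They stand at bases 5 to 9 past the sim summit, at 24 to 28 past the strongest brat summit, and 3 times within 55 bases of the elav intron summit. The moody window held 4 matches and the loco window 5, of which 4 overlap in 1 repeat. Of the 9 peaks that lay more than 500 bp from any transcription start site (TSS), 8 held GAGAG, beside 25.3% of all optimal peaks at such distances. Of the 5 nearer to a TSS, 1 did, the peak of moody, beside 22.8% of all. The split by distance from a TSS was not among the planned counts. The 14 peaks come from 9 genes and brat supplies 3 of the peaks with a match. These peaks are thus not independent, and the difference was not tested.

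Sites of the kinds that Enhancer of split proteins are known to bind were in 2 of the 14 windows (14.3%), near the 16.1% of all optimal peaks. The palindrome CACGTG was in 0 of the 14, beside 2.88% of all optimal peaks. The same holds for CACGCG (3.21% of all) and for CACGAG (2.75% of all). The N-box form CACAAG was in 2 (14.3%, beside 8.18% of all), both of them weaker peaks of brat. These are the 4 motifs counted. CAGCTG, an E-box, was in 1 window (10.4% of all), the weaker brat intron peak, where it starts 2 bases after the end of a CACAAG match. The 14 windows held 0 matches to the E-box CACCTG (6.09% of all) and to the Zelda site CAGGTAG (0.709%). They also held 0 matches to TATCGATA, the DNA replication-related element (3.38%), and to GTGGGAA, a core of Su(H) sites (2.04%). A motif that is missing says only that these letters are not within 100 bp of the summit. The GC content of the windows ran from 30.3 to 57.7% with a median of 37.1%, beside 37.3% for all optimal peaks.

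Among the patterning genes of the neuroectoderm, sim alone had a peak, and it was the strongest of the whole list. sim encodes the helix-loop-helix PAS factor that specifies the midline cells of the central nervous system. Its peak (chr3R:13068127-13068300) lay in an intron, 4177 bp upstream of the nearest start site, which is an internal one of sim itself. The signal was 415, and the rank was 124 in the pooled list and 127, 135 and 129 in replicates 1, 2 and 3. All 3 replicates thus placed it at nearly the same height. The peak was 174 bp wide, whereas 12 of the 14 were 384 bp wide.

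The columnar genes and the SoxB genes had no peak. D and SoxN encode Sox factors of the early neuroectoderm, and their strongest regions in the pooled list ranked 6979 and 4098. The homeobox genes vnd, ind and Dr define the ventral, intermediate and dorsal columns, and their strongest pooled regions ranked 9887, 19083 and 4898. For genes without a peak, the rank in a replicate is that of its best assigned region, which may lie at a different place in each list. At SoxN these ranks were 2446, 14205 and 5817, in order of replicate number. The value of replicate 1 is just outside its top list. At ind, replicate 2 had no region at all. Optimal peaks did lie beyond the assignment window of both SoxN and Dr, 5335 bp and 1941 bp from the gene span on the downstream side. Their nearest TSS was that of SoxN and of Dr, and they ranked 1159 and 1502.

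Genes of asymmetric division carried the largest number of peaks. This division hands fate determinants to the daughter cell that will leave the stem cell state. brat encodes an NHL-domain translational repressor that is inherited by this daughter and limits self-renewal. Its strongest peak (chr2L:19164951-19165334) lay in an intron 724 bp upstream of an internal start site. Its signal was 310, its pooled rank 250, and its ranks were 333, 295 and 176 in the replicates, all within the top lists. A further intron peak (chr2L:19141693-19142076), 8069 bp downstream of the nearest brat start site, ranked 1425 in the pooled list and 1853, 1752 and 1208 in the replicates. The third intron peak (chr2L:19154967-19155350) ranked 2150, and was in the top list of replicate 1 only, at 1607. The brat promoter peak (chr2L:19133465-19133848), 159 bp upstream of the start, was the weakest of the 4 at rank 2311. It ranked 2580, 11545 and 1714 in the replicates, and it lies in the 2 kb windows of Polr1D and AsnRS as well. Only the 2 higher-ranked brat peaks were therefore in every top list.

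The peaks of insc and pros were near the end of the optimal set and were in no replicate's top list. insc encodes an adaptor that orients the neuroblast spindle, and pros a homeodomain factor that the neuroblast passes to its daughter. The insc peak (chr2R:20830933-20831316) ranked 2161 in the pooled list and 2517, 3620 and 2849 in the replicates. It lay in an intron of insc, but its nearest start site was that of sktl, 1293 bp away. The pros peak (chr3R:11372619-11373002) was 23 bp downstream of an internal start site, in sequence that is coding in another transcript. It ranked 2283, and 2417, 2715 and 21849 in replicates 1, 2 and 3, so that replicate 3 stood far from the others. mira encodes the adaptor that carries the proteins of pros and brat. This gene had no region in the pooled list or in replicate 1, and ranks of 16388 and 19766 in replicates 2 and 3.

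**Figure D2:**
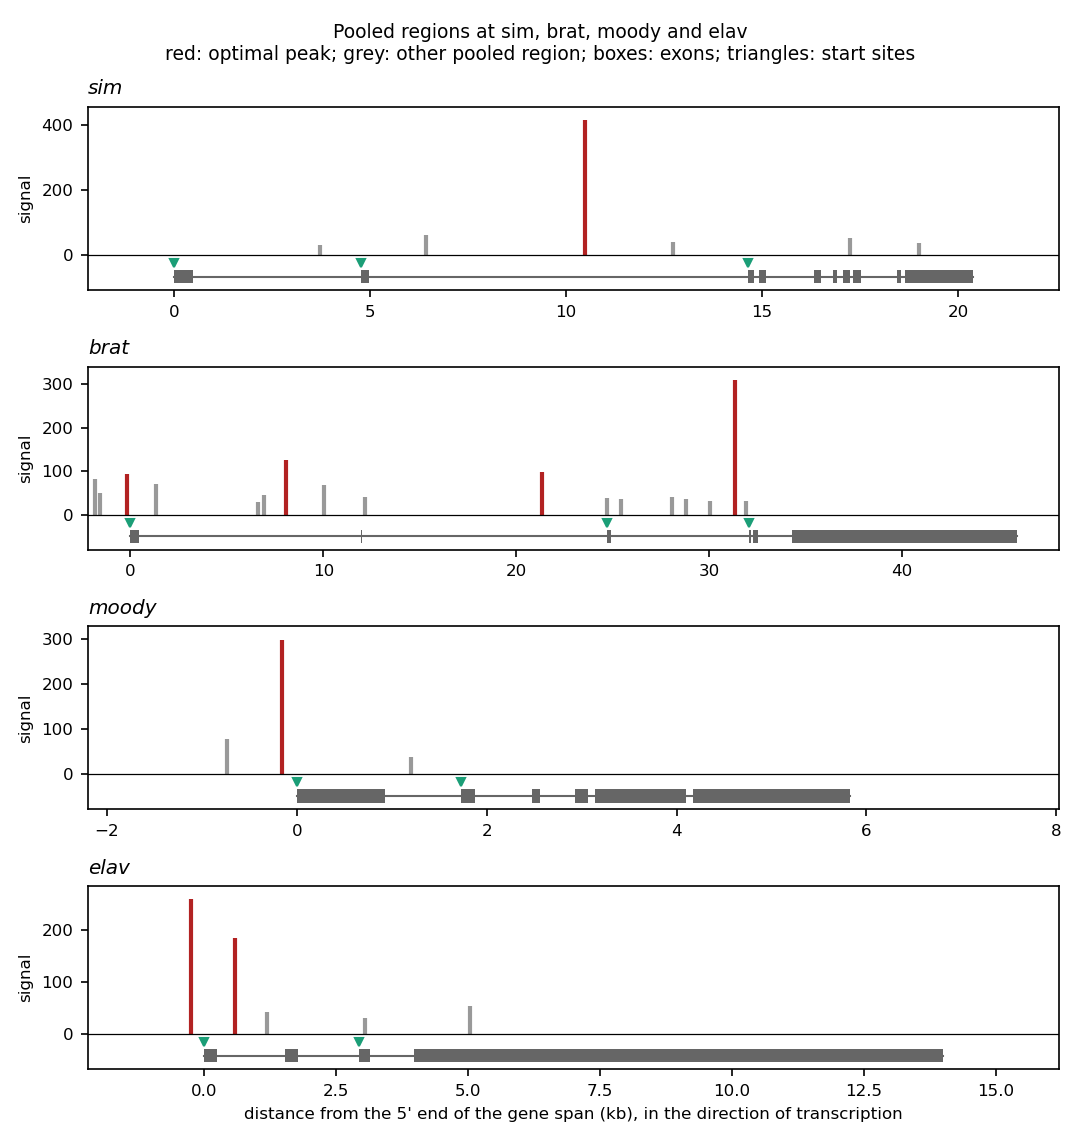
Vertical lines give the signal of each pooled region at its summit, against the distance in kb from the 5' end of the gene span, for sim, brat, moody and elav, with exons as boxes, start sites as triangles, optimal peaks in red and other pooled regions in grey. The sim peak, with a signal of 415, and the strongest brat peak, with 310, stand inside the genes, upstream of internal start sites, whereas those of moody and elav stand at the gene start.

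The temporal series is the order in which neuroblasts express transcription factors as they age, and of its 4 genes here the late factor grh had a peak. grh encodes the Grainyhead factor, which also acts in epidermis. Its peak (chr2R:17804759-17805142) lay in an intron 2084 bp downstream of the nearest grh start site. Its signal was 128, its pooled rank 1411, and its ranks 2019, 2023 and 828, inside each top list. The POU genes nub and pdm2 are neighbours. The 98.7 kb from the start of nub to the end of pdm2 held 0 optimal peaks and 19 pooled regions. The strongest of these ranked 3975 and was assigned to neither gene. The best pooled ranks of the genes were 11993 for nub and 9066 for pdm2. The zinc finger gene cas had a best pooled rank of 4347, and ranks of 7356, 9076 and 5291 in the replicates.

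No gene of the Snail family had a peak. sna, wor and esg encode zinc finger repressors that act together in neuroblasts, and they lie in 144 kb of arm 2L that held 0 optimal peaks and 37 pooled regions. The strongest of these regions ranked 3385 and lay between esg and wor. The best pooled ranks of the genes were 7277 for sna, 6603 for esg and 27496 for wor, the last with no region in replicate 1. scrt, a related gene of neurons, had a best pooled rank of 4508. The remaining progenitor and precursor genes had none either. klu, a zinc finger gene of neuroblast renewal, came nearest with a best pooled rank of 2699 and best replicate ranks of 3362, 3234 and 5760. nerfin-1, a zinc finger gene of young neurons, ranked 4525. sens and phyl, which act in the precursors of sense organs, ranked 8655 and 5192. A peak of rank 1176 lay 67 bp beyond the 2 kb upstream window of phyl, nearest to the TSS of a noncoding RNA.

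Of the 7 glial genes, moody and loco, which act together in the glia of the blood-brain barrier, had peaks. moody encodes a G protein-coupled receptor, and its peak (chrX:2050196-2050401) lay 156 bp upstream of the start, also within 2 kb upstream of CG4313. It had a signal of 298 and a pooled rank of 270, and ranks of 182, 228 and 446 in the replicates. moody was the gene under 10 kb that carried a peak. loco encodes a regulator of G protein signalling, and its peak (chr3R:22624688-22625071) was in an intron 1754 bp downstream of the nearest loco start site. It ranked 1650 in the pooled list, and 2721, 1657 and 1094 in the replicates, so that replicate 1 fell outside its top list. gcm and gcm2 encode the factors that switch cells to glial fate. The 33.2 kb from gcm to gcm2 held 0 optimal peaks, and the genes' best pooled ranks were 7931 and 19127. gcm had no region in replicate 3, and gcm2 none in replicate 2. repo, the homeobox gene of differentiated glia, had a best pooled rank of 6036, and 8306, 4422 and 28695 in the replicates. nrv2, a sodium pump subunit of glia and septate junctions, lay just outside the optimal set at 2620. Its best ranks in the replicates, 2593, 2595 and 2987, may come from different places in the gene. By the same measure, pros had 694, 2008 and 2309, and sim had 127, 135 and 129. Eaat1, a glutamate transporter of glia, had no pooled region, and ranks of 14060, 26681 and 23150.

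Among the neuronal genes, elav and lola had peaks and fne did not. elav encodes an RNA-binding protein that marks neurons, and its peaks stood to either side of the start of the gene. The promoter peak (chrX:523288-523671) lay 254 bp upstream of the start, with a signal of 259, a pooled rank of 374 and replicate ranks of 721, 322 and 247. The intron peak (chrX:522445-522828) was 589 bp downstream, with a signal of 184, a pooled rank of 737 and replicate ranks of 716, 909 and 894. Both were in each top list. Both also lie in the windows of the neighbouring gene arg and of the noncoding RNA enrr. fne, an elav relative, had a best pooled rank of 5912, and 14530, 5852 and 8170 in the replicates.

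lola encodes a large family of BTB zinc finger isoforms of axon growth and guidance. Its stronger peak (chr2R:10541932-10542315) was 454 bp upstream of an internal start site, in an intron. It had a signal of 187, a pooled rank of 719 and ranks of 1807, 505 and 1129 at the nearest summit in each replicate. The other peak (chr2R:10544555-10544938), 1456 bp upstream of the gene, had a pooled rank of 1941 and ranks of 2448 and 2323 in replicates 1 and 2. In replicate 3 the nearest summit ranked 26028, and an overlapping region within 200 bp ranked 1438. At both lola peaks replicate 1 gave a lower position than the pooled list.

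**Figure D3:**
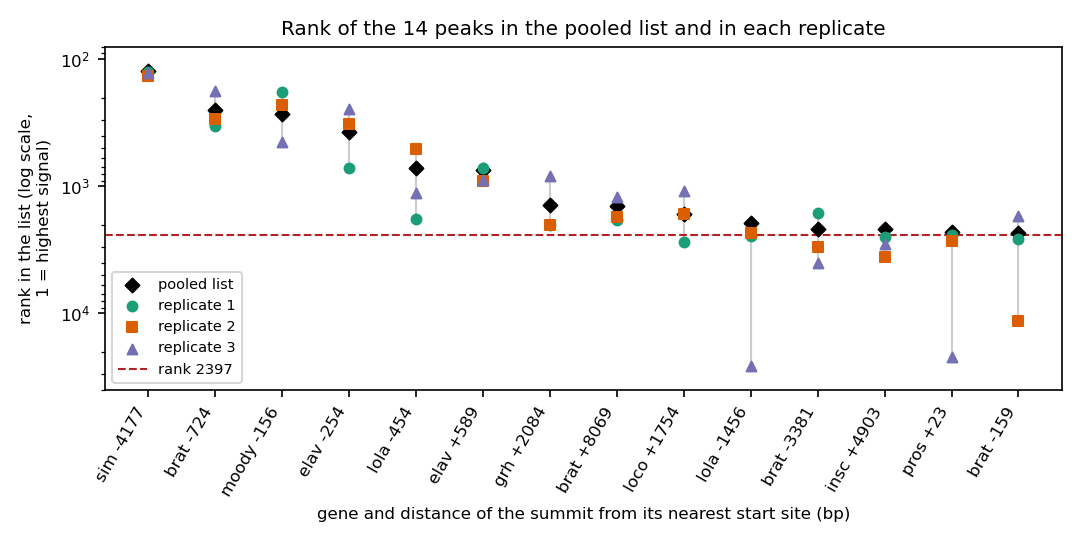
Points give the rank (log scale, highest signal at the top) of each of the 14 peaks in the pooled list and at the nearest summit within 200 bp in each replicate, labelled by gene and distance of the summit from the gene's nearest start site. The sim ranks lie between 124 and 135, while single replicates fall to 21849 at pros and 11545 at brat. The 26028 at lola is the nearest summit in replicate 3, where another region within 200 bp ranked 1438.

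Of the 14 peaks, 8 had a region within 200 bp in all 3 top lists (57.1%, beside 59.9% of all optimal peaks), 2 in 2 of them, 2 in 1, and 2 in 0. The 8 belonged to 6 genes: sim, brat, moody, elav, lola and grh, and all stood at rank 1425 or better in the pooled list. The other 6 peaks stood between ranks 1650 and 2311. This order follows in part from the pooling, since the pooled list holds the same libraries. Of the 14 peaks, 9 were in introns, 4 were upstream of the gene and 1 was in coding sequence. Within 500 bp of a TSS of any gene there were 5 (35.7%), beside 47.5% of all optimal peaks. In 12 peaks the nearest start site of any gene was the listed gene's own, the exceptions being insc and the brat peak nearest to Polr1D.

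Gene by gene, each replicate's top list reached 8 of the 32 genes, 25% in each, beside 17.3%, 16.6% and 17.2% of all protein-coding genes in replicates 1, 2 and 3. The same 8 genes were reached in each: the 9 with an optimal peak, without insc. Over all protein-coding genes 11.5% were reached in every replicate, which compares with 25% here. Some of these 8 were reached through different places. loco was in the top list of replicate 1 through a region 229 bp upstream of its start, at rank 2363, and not through its optimal peak. pros was reached in every replicate through a region outside the optimal set. With all ranks counted, 30 of the 32 genes had some region in the pooled list, beside 76% of all genes, and the median of the best pooled rank was 5045, beside 11826. In the replicates the medians were 5021.5, 5870.5 and 6161.5, beside 11604 to 12237 over all genes, with a gene that had no region counted below all others. None of these shares and medians was matched for gene length. Of the 32 genes, 14 span 10 kb or more, beside 1977 of all 13945 protein-coding genes.

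**Figure D4:**
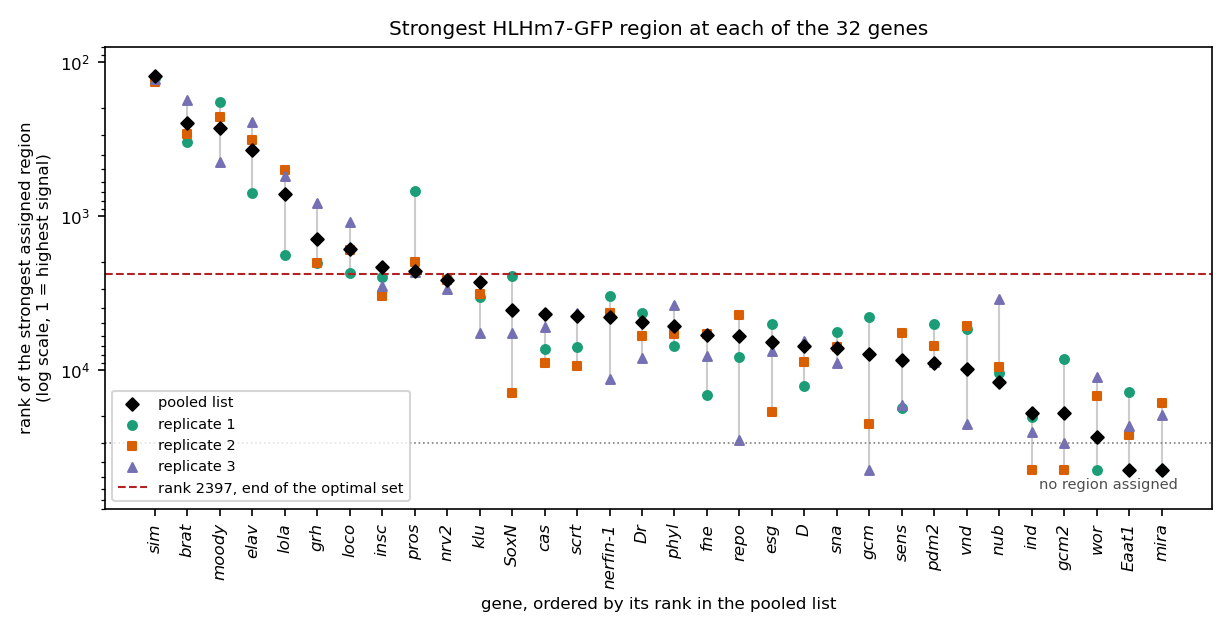
Points give the rank (log scale, highest signal at the top) of the strongest region assigned to each of the 32 genes in the pooled list and in each replicate, with genes ordered by pooled rank. The dashed line is rank 2397, the end of the optimal set. The 9 genes with a peak stand above it, nrv2 at 2620 and klu at 2699 lie just below it, and mira and Eaat1 have no pooled region.

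A list of 62 other genes of the same programme held 19 with an optimal peak (30.6%, beside the 28.1% and 17.1% above). Genes of cell polarity and asymmetric division came first in number, with 9 of 13. This list and its groups were chosen with earlier results of these data known, so they give no independent support. The strongest of them was baz, the Par-3 homologue that marks the apical side of the neuroblast, with a signal of 233 and rank 466. Its summit was 18748 bp from the nearest baz start site, and a noncoding RNA, CR44026, had the nearest one. numb, which encodes an inhibitor of Notch signalling that is inherited by one daughter cell, followed at 170 and rank 862, with its summit 151 bp upstream of an internal start site. aurA and polo of this group encode mitotic kinases of dividing cells in general, and the summits counted for par-6 and pins were nearest to the start sites of CG8188 and wdb. Of the temporal genes 1 of 9 had a peak, of the patterning and midline genes 3 of 14, of the progenitor genes 2 of 6, of the neuronal and axonal genes 2 of 12, and of the glial genes 2 of 8. The highest signal of the 62 was at Gs2, a glutamine synthetase gene used in glia (289, rank 289), followed by zfh1, a motor neuron and mesoderm factor (262, rank 365). After baz came sli, the midline repellent (195, rank 671), brk, a repressor of Dpp targets (189, rank 701), and pnt, an Ets factor of glia (174, rank 819), before numb and br (168, rank 878). The pnt summit lay 12186 bp upstream of an internal pnt start site and was nearest to the start of a noncoding RNA, CR46090, and the br summit was nearest to that of Mur2B. Of the 32 genes of 10 kb or more among the 62, 12 had a peak (37.5%), beside 37.9% of all genes of that length, so that the long genes of this list stood at the share of all long genes. This does not cover the shorter genes of the list, and the part of gene length in the 30.6% was not tested.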

How the data were processed

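ChIP-seq region lists of 3 biological replicates were used. Per the labels, chromatin was sonicated, with a size range of 200 to 800 bp. Regions were called by the authors on dm6 against a control alignment, per replicate and pooled, and IDR then gave the optimal set, per the deposited descriptions. Neither labels nor headers state an aligner, a caller or an IDR threshold. The control alignment was not used here. The deposited signal has no stated scale. Optimal peaks had a deposited q-value, as −log10, between 1.83 and 3.32. The deposited summit, an offset from the region start, was the position used. The optimal set equals the upper end of the pooled list (7.99% of its regions), and no 2 replicate lists were identical. Depth per sample is unknown, so that no interval is given. Lists on the older build were not used.

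Regions were assigned to Ensembl release 115 genes by summit, in the span or within 2 kb upstream. Each peak was matched to the nearest replicate summit within 200 bp, and a peak was in a top list if any region within 200 bp was. Motifs were searched on both strands within 100 bp of each summit. The assignment was tested on simulated data with known positions. No test was run, since there is 1 group; shares are set beside those of all genes or peaks. Every gene with a peak is named, with the 8 strongest other neural genes and every gene without a peak. The members, the lists and the role groups were chosen with earlier results of these data known. Alternatives are given in the closing section. Software was Python 3.11.15, NumPy 2.4.6 and Matplotlib 3.10.9.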

Additional observations from a re-analysis of the deposited data

How the results depend on the processing

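The count of 9 genes with a peak was 8 with the gene span alone, without moody (25%, beside 7.87% of all genes), 10 with 5 kb upstream, where phyl was added (31.2%, beside 22.5%), and 10 when each peak went to the gene with the nearest TSS, where SoxN and Dr entered and insc left (31.2%, beside 13.2%). It was 5 when a summit within 1 kb of a TSS was required (15.6%, beside 12.4% of all genes) and 5 with the 1198 highest-signal peaks (15.6%, beside 9.49%), and these alternatives keep fewer peaks or places by construction. Peaks with a top region in both other replicates left 6 to 7 of the 9 genes when each replicate was left out in turn (18.8 to 21.9%, beside 12.2 to 12.5% of all genes), from 1591 to 1665 peaks; sim, brat, moody, elav, lola and grh were among them each time, and loco without replicate 1. The 8 peaks in every top list became 4 with summits within 50 bp and 5 with top lists of 1000, and were 8 to 10 without a replicate. The 8 genes reached in every replicate became 4 with top lists of 1000 and were 8 with each replicate left out in turn. Leaving out a replicate can only keep or raise these counts of peaks and genes in every top list. The optimal set itself still rested on all 3 replicates. With its peaks filtered for a top region in both other replicates, the 19 other neural genes became 14 to 16 (22.6 to 25.8%, beside 12.2 to 12.5% of all genes). In alternatives chosen after seeing the data they were 9 within 1 kb of a TSS (14.5%, beside 12.4% of all genes) and 11 with the 1198 highest-signal peaks (17.7%, beside 9.49%). No paired analysis was possible because there is 1 group. Without read numbers, a region missing from a list cannot be told from one that depth did not reach.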

Other observations

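A region of pros was in the top list of every replicate and not in the pooled list. It lies in an untranslated part of an exon, 20212 bp downstream of the nearest start site in replicate 1 (chr3R:11392812-11393187), and ranked 694, 2008 and 2309 in replicates 1, 2 and 3, with signals of 62.4, 42.7 and 27.2. Replicate 1's top list held 1446 regions with a top region of both other replicates within 200 bp, and this was the 1 region among them that no pooled region overlapped. The pros peak of the optimal set, in contrast, was in 0 top lists. This region was singled out after its values were seen, and the cause was not tested.

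Other regions of the listed genes reached the top list of a single replicate and not the optimal set. moody had one 737 bp upstream of its start, at rank 1646 in replicate 1, 4050 in replicate 2 and 4043 in replicate 3. loco had one 554 bp downstream of a start site, at rank 1865 in replicate 3, and lola one 1766 bp downstream of a start site, at rank 2113 in replicate 2. A brat region at rank 1354 in replicate 1, with its summit 3591 bp upstream of an internal start site, is no separate place: it shares 170 bp with the intron peak of pooled rank 2150, though their summits are more than 200 bp apart.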
